A study of Homo sapiens with 20 samples.

Results

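The membrane skeleton of the red cell is represented here by 9 genes, SPTB, ANK1, SLC4A1, EPB41, EPB42, DMTN, ADD2, TMOD1 and TPM1, out of 46425 gene symbols in the RNA-seq tables. They were chosen by name, as the rows of the transcript tables that carry one of these symbols, and all 9 were found and passed the filter on low counts. RNA-seq followed HUDEP-2 cells, an immortalized erythroid progenitor line derived from human umbilical cord blood and held as progenitors by EPO, SCF, dexamethasone and doxycycline. Wild-type cells of this single line were sampled before differentiation (day 0, the Pro-E stage) and then daily up to day 8, and once more on day 12, while they differentiated. The differentiation medium held transferrin, serum, heparin, insulin, EPO, SCF and doxycycline, with SCF left out from day 6 and doxycycline from day 8. In the names used for the stages, days 4 to 6 are EB/LB, day 8 is Poly and day 12 is Ortho/reticulocyte. The 20 libraries came as 2 for each of the 10 days. The study calls its libraries of days 0 and 8 biological replicates, but the labels do not say whether the libraries of a day came from separate cultures. If they did not, p-values measure only the spread between these libraries, which may be technical. The library of each day in the table that spans all days is called set A here, and the library in the tables of separate days is called set B. Set B was put together from tables of days 0 to 6, of days 7 and 8, and of day 12. The labels do not say whether these tables are batches.

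Under the red cell membrane lies a lattice of spectrin, whose ends meet at short actin filaments. SPTB encodes beta spectrin, and ANK1 encodes the ankyrin that ties it to band 3, the anion exchanger encoded by SLC4A1. EPB42 encodes a transglutaminase-related protein without enzyme activity that strengthens this link. At the actin junctions, EPB41 binds spectrin to actin, DMTN (dematin) bundles actin, ADD2 (beta-adducin) caps the fast-growing filament end, TMOD1 (tropomodulin) caps the slow-growing end and TPM1 (tropomyosin) lies along the filament. Loss of several of these proteins is known to cause hereditary spherocytosis or elliptocytosis.

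Library totals ran from 52131713 to 70358198 counts, so that a count of 0 allows up to 0.0426 to 0.0575 CPM (counts per library size), for counting error only. No member was near this limit, since the lowest count of a member in any library was 1483, for ADD2. The 9 erythroid markers were present throughout, with a summed level between 29459 and 625123 TPM (a level scaled for transcript length and library, by which genes can be compared). The 6 leukocyte markers summed to at most 2.54 TPM, and 4 of the 5 megakaryocyte markers never passed 2 TPM. The exception was ITGA2B, which was at 10.7 TPM (set A) and 68.9 TPM (set B) at the start but only at 0.14 and 0.292 TPM on day 8. Of the progenitor markers, CD34 never passed 2 TPM, whereas KIT stood at 305 and 349 TPM on day 0. Ribosomal RNA took 18.5% and 17.5% of the counts in the set B libraries of days 7 and 8, and 1.03% to 4.08% in the other libraries. Between 59.3% and 73.2% of genes differed between the libraries of a day by more than sampling noise, so no pair was a repeat of the same library. Globin genes took 0.819% of the counts in the day 0 library of set A and 33.7% in its day 12 library. Leaving globin genes out of the scaling of the main test (TMM) changed the genes called between days 8 and 12 from 9608 to 9600. This does not apply to TPM or to scaling by library totals, of which globin genes remain a part. In such bulk samples, fewer cells of a type and less RNA per cell cannot be told apart.

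SLC4A1 changed most among the members. This gene lies on chromosome 17 (hg38, chr17:44248390-44268161). In set A its level was 24.9, 48.9, 70.3, 189, 261, 497, 619, 1956, 1769.9 and 1111 TPM on days 0, 1, 2, 3, 4, 5, 6, 7, 8 and 12. In set B it was 17.4, 23.6, 86.4, 215, 476, 794, 1003, 2037, 2197 and 1548 TPM on the same days. Both series climbed from day 0 to day 7, levelled off on day 8 and were lower on day 12. From day 0 to day 8 SLC4A1 rose by 7.18 ± 0.50 (SE) on the log2 scale, with 6.65 in set A and 7.69 in set B (edgeR quasi-likelihood test on TMM-scaled counts, adjusted p = 9.0e-07). Its TPM was 71 times the day 0 level in set A and 126 times in set B. The gain of 3.37 ± 0.42 by day 3 (edgeR adjusted p = 0.000922) and that of 5.48 ± 0.47 by day 6 (edgeR adjusted p = 1.72e-05) also passed. SLC4A1 had the lowest mean TPM of the 9 members on day 0 and the highest on days 6, 8 and 12. It made up 1.85% and 1.53% of the summed TPM of the members on day 0, in sets A and B, and 42.1% and 48.7% on day 8.

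**Figure D1:**
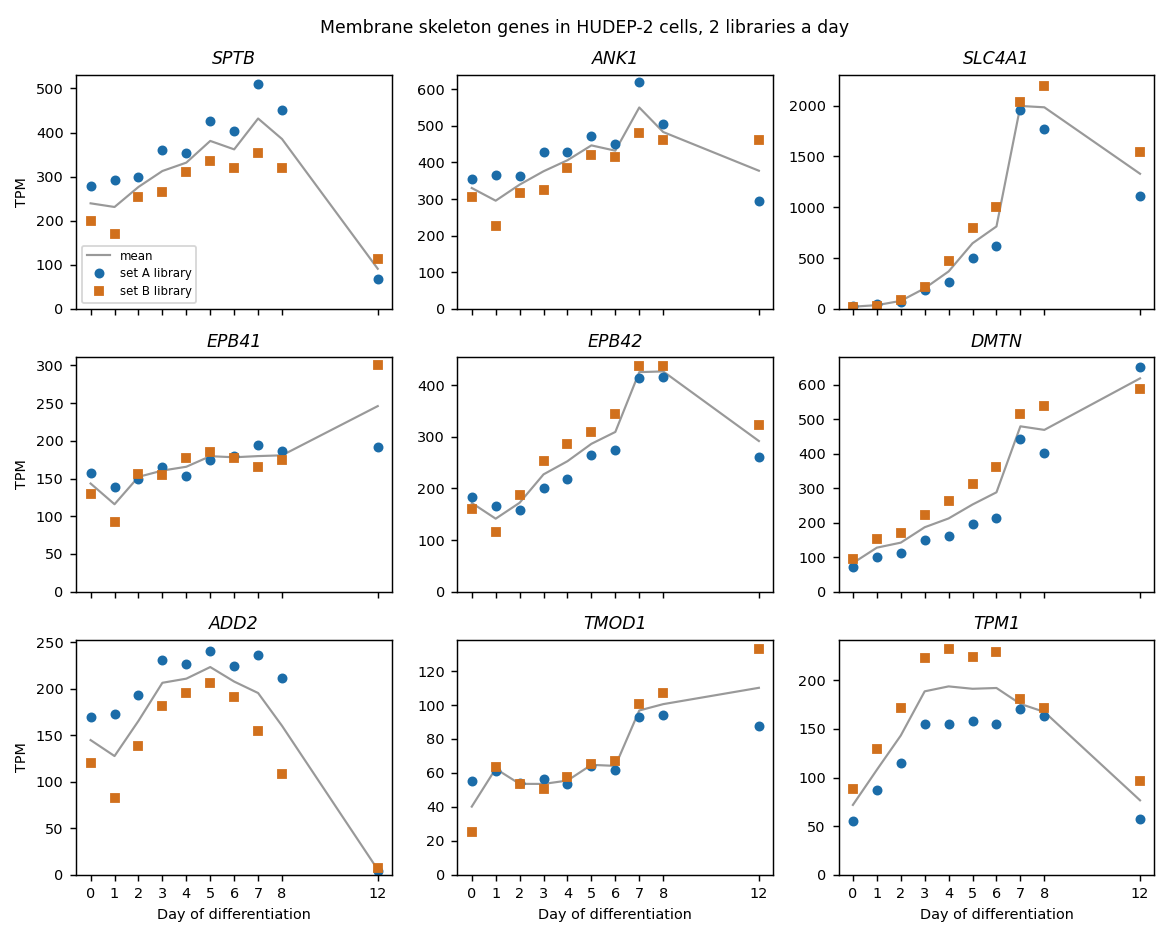
TPM (vertical axes, from 0) of the 9 genes by day of differentiation (horizontal axes), with a circle for the set A library, a square for the set B library and a grey line through their mean. SLC4A1 went from 619 and 1003 TPM on day 6 to 1956 and 2037 TPM on day 7, and ADD2 was at 3.57 and 7.07 TPM on day 12.

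EPB42, whose product sits beside band 3, followed with a smaller range. It lies on chromosome 15 (chr15:43197227-43225856). Its set A level was 184, 166, 158, 201, 219, 264, 274, 413, 415 and 261 TPM on the 10 days in order, and its set B level was 159.6, 116, 186, 253, 287, 308, 345, 437, 438 and 323 TPM. Both libraries of day 8 were above both libraries of day 0, and those of day 12 lay in between. The rise from day 0 to day 8 was 1.92 ± 0.23 on the log2 scale (1.67 in set A and 2.16 in set B, edgeR adjusted p = 4.02e-05), and that to day 6 was 1.05 ± 0.22 (edgeR adjusted p = 0.00896). The day 6 call was lost without the set B library of day 0 (0.98, edgeR adjusted p = 0.0905) and without that of day 6 (0.77, edgeR adjusted p = 0.121).

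ANK1, on chromosome 8 (chr8:41653225-41896741), was the highest member on day 0. Its level in set A was 354, 366, 362, 428, 428, 473, 449.96, 620.3, 506 and 294 TPM, and in set B 306, 225, 316, 323, 384, 420.3, 414, 479.8, 461 and 460.3 TPM. Set A exceeded set B on 9 of 10 days, day 12 being the exception, and the highest level came on day 7 in both. ANK1 rose by 1.15 ± 0.19 from day 0 to day 8 (1.01 and 1.29 in sets A and B, edgeR adjusted p = 0.000419). On TPM that difference was 0.55 and did not pass (limma on log2(TPM + 1), adjusted p = 0.083). By day 6 the difference on TMM-scaled counts was 0.57 ± 0.18 and did not pass (edgeR adjusted p = 0.0661).

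SPTB, on chromosome 14 (chr14:64744106-64879907), resembled ANK1 up to day 8. Its set A level was 279, 293, 299, 359, 354, 427, 404, 509.6, 451 and 68.7 TPM, and its set B level was 199.7, 169.7, 254, 266, 309.9, 335, 319.6, 354, 319 and 113 TPM. Here too set A was above set B on 9 of 10 days and day 7 was the highest in both, but day 12 was the lowest. SPTB rose by 1.21 ± 0.24 from day 0 to day 8 (1.1 and 1.34, edgeR adjusted p = 0.00172). On TPM the difference was 0.68 and did not pass (limma on log2(TPM + 1), adjusted p = 0.094).

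DMTN (chr8:22048931-22082527) had the second largest rise of the members. In set A it stood at 70.4, 102, 114, 151, 163, 195, 214, 444, 401 and 650.3 TPM, and in set B at 95.5, 153, 171, 223, 262, 311, 362, 515, 537 and 587 TPM. Set B was above set A on every day but day 12. DMTN rose by 1.99 ± 0.42 by day 6 (edgeR adjusted p = 0.00872) and by 3.12 ± 0.44 by day 8 (3.00 and 3.20, edgeR adjusted p = 0.000152). The day 6 call was lost without the set A library of day 0 (1.76, edgeR adjusted p = 0.081) and without the set B library of day 6 (1.46, edgeR adjusted p = 0.104).

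EPB41 (chr1:28887091-29120046) had a narrow range in set A and a wider one in set B. Its set A level was 158, 139, 149, 166, 154, 174, 179.8, 194, 187 and 192 TPM, and its set B level was 129, 92.6, 156, 155, 178, 185, 177, 165, 175 and 300.4 TPM. The highest day was 1.40 times the lowest in set A and 3.24 times in set B. On TMM-scaled counts EPB41 nevertheless rose by 0.95 ± 0.16 from day 0 to day 8 (0.75 and 1.15, edgeR adjusted p = 0.000643). On TPM the difference was 0.34 and did not pass (limma on log2(TPM + 1), adjusted p = 0.203).

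Of the proteins at the ends of the actin filaments, TMOD1 rose and ADD2 did not pass the test by day 8. TMOD1 (chr9:97501180-97601743) was at 55.3, 61.2, 53.8, 56.2, 53.1, 64.2, 61.5, 92.9, 94.2 and 87.5 TPM in set A and at 24.8, 63.7, 53.2, 50.7, 57.7, 65.3, 66.7, 101, 107 and 133 TPM in set B. Its libraries of day 0 differed by 2.23 times, the widest gap between the libraries of a day for any member, and beyond day 0 the series were close until day 12. The rise to day 8 was 1.93 ± 0.27 (1.24 in set A and 2.79 in set B, edgeR adjusted p = 0.00013). That to day 6, 0.89 ± 0.26 (edgeR adjusted p = 0.0441), rested on the set B library of day 0, since without it the change was 0.44 (edgeR adjusted p = 0.281). The day 6 call was also lost without either library of day 6.

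ADD2 (chr2:70656784-70768200) was at 169.6, 173, 193, 231, 227, 240.5, 224, 236, 211 and 3.57 TPM in set A and at 119.96, 82.3, 138, 182, 195, 206, 191, 155, 109 and 7.07 TPM in set B. Its level peaked on day 5 in both, and its libraries of days 0 and 8 overlapped. The difference between days 0 and 8 was 0.73 ± 0.33 (0.83 and 0.58, edgeR adjusted p = 0.0951). With the set of tables as a block it passed (0.72, edgeR adjusted p = 0.0329). Day 12 was far below every other day.

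TPM1 (chr15:63042698-63071915) was at 55.6, 86.7, 115, 155, 155, 159, 155, 171, 164 and 56.8 TPM in set A and at 87.9, 129, 172, 223, 233, 224, 229, 181, 171 and 96.2 TPM in set B. It reached a plateau by day 3, and set B was above set A on all 10 days. TPM1 rose by 1.48 ± 0.35 by day 3 (edgeR adjusted p = 0.0348), by 1.61 ± 0.35 by day 6 (edgeR adjusted p = 0.00977) and by 1.86 ± 0.35 by day 8 (2.1 and 1.70, edgeR adjusted p = 0.00122). The day 3 call was lost when any 1 of the 4 libraries of days 0 and 3 was left out (edgeR adjusted p between 0.0626 and 0.274), and the day 6 call without the set A library of day 0 (1.31, edgeR adjusted p = 0.0937) or the set B library of day 6 (1.22, edgeR adjusted p = 0.114).

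Counted over the 9 members, 2 rose by day 3 (SLC4A1 and TPM1), 5 by day 6 (these with EPB42, DMTN and TMOD1) and 8 by day 8, and none fell. Among all 16784 genes tested, 3.38%, 10.9% and 37.1% were called on these days in either direction, with 1.95%, 5.59% and 17.7% higher and 1.43%, 5.35% and 19.4% lower. The median log2 change of the members was 0.52, 0.89 and 1.86, against -0.02, -0.00437 and 0 over all genes. In TPM, 8 of the 9 had both day 8 libraries above both day 0 libraries, ADD2 being the exception, and 15.5% of all genes were separated in this direction. Without the set B library of day 6 the day 6 count was 1, without either library of day 0 it was 3, and without the set A library of day 6 it was 4. The day 8 count of 8 held when any 1 of the 4 libraries of days 0 and 8 was left out. All 9 members differed among the 10 days in a single test of any difference (edgeR, adjusted p between 2.66e-08 and 0.0034), as did 66% of all genes.

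**Figure D2:**
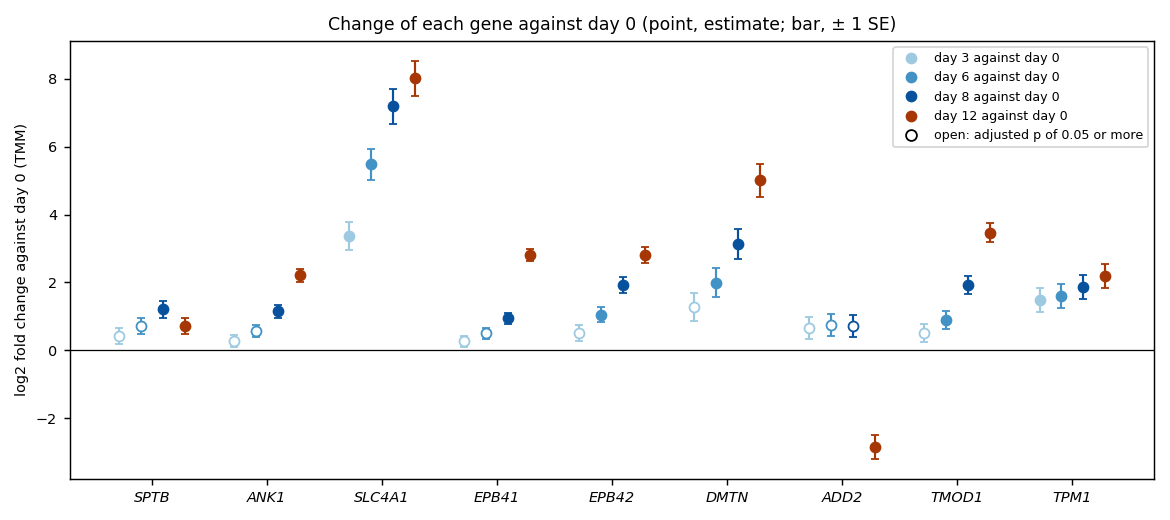
Log2 fold change of each gene against day 0 (vertical axis) on days 3, 6, 8 and 12, from TMM-scaled counts of all 20 libraries, with a bar of 1 SE to each side. Filled points have an adjusted p under 0.05, open points do not. The points climb from day 3 to day 8 for 8 genes, and ADD2 alone is below 0 on day 12.

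Between neighbouring days few steps of the members passed the test. Of the 81 comparisons of a member with the day sampled before, 7 passed, of which 6 were between days 8 and 12 and 1 was the rise of SLC4A1 from day 6 to day 7 (1.63 ± 0.39, 2.05 in set A and 1.34 in set B, edgeR adjusted p = 0.0463). Both steps cross between tables of set B, while set A comes from a single table. In set B a difference between tables cannot be told apart from a change between days, and it was not tested. From day 6 to day 7 the estimate was above 0 for all 9 members, with a median of 0.70 against 0 for all genes, of which 2.57% were called (0.882% higher and 1.69% lower). For ADD2 and TPM1 that estimate was below 0 with library totals and on TPM. SLC4A1 moved from 619 to 1956 TPM in set A and from 1003 to 2037 TPM in set B over that step, and DMTN from 214 to 444 TPM and from 362 to 515 TPM. DESeq2 called 4 members on that step and limma on log2(TPM + 1) called 1. The call of SLC4A1 on this step lay close to the threshold: when 1 of the 20 libraries was left out, it was lost in 12 of 20 fits. The change was 1.26 and 2.14 without the set A and set B libraries of day 6, and 1.71 and 1.54 without those of day 7. Without a library of another day it stayed at 1.62 to 1.63. Without the libraries of days 7 and 8 rich in ribosomal RNA, the change of SLC4A1 was 1.54 ± 0.46 (edgeR adjusted p = 0.185) and 127 genes were called in place of 431, whereas leaving ribosomal RNA genes out of the scaling gave 430. Between days 3 and 4, 4 and 5, 5 and 6, and 7 and 8, edgeR called none of the 16784 genes. On these steps 102, 113, 92 and 217 of them had an unadjusted p under 0.05. Each is a share below 0.05, the share to be looked for if no gene changed. From day 0 to day 1, 0.393% of genes were called (0.262% higher and 0.131% lower), from day 1 to day 2 0.00596% and from day 2 to day 3 0.0298%, and no member was among them. On the 4 steps with no call by edgeR, DESeq2 called 0, 0, 0 and 1 gene and limma called 0.

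Comparisons with day 12 depended on how libraries were put on a common scale. The TMM factor, which estimates what part of a library the bulk of genes shares, was between 0.80 and 1.17 up to day 8 and 0.46 and 0.54 on day 12. The median change of all genes from day 8 to day 12 was -0.20 with TMM, -1.02 with counts scaled to library totals and -0.68 on log2(TPM + 1). Among called genes, 41.6% were higher on day 12 with TMM, 19.6% with library totals and 13.5% on TPM. From day 0 to day 8 the medians were 0, -0.36 and -0.34, and the higher calls made up 47.7%, 24.7% and 15.5% of calls. From day 0 to day 3 higher calls made up 57.7%, 48.3% and 21.8%, from day 0 to day 6 51.1%, 42.7% and 23.2%, and from day 6 to day 7 34.3%, 8.33% and 7.07%. On days 3, 6 and 8 the direction of all 9 members against day 0 was the same under all 3 scalings. Read against the median of all genes, their changes from day 0 to day 8 spanned 0.73 to 7.18 with TMM, 0.75 to 7.14 with library totals and 0.42 to 6.83 on TPM.

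From day 8 to day 12 ADD2 fell under every scaling, by 3.58 ± 0.36 with TMM (edgeR adjusted p = 1.65e-06), by 4.42 with library totals and by 4.65 on TPM. Its TPM went from 211 to 3.57 in set A and from 109 to 7.07 in set B, and the lowest of these values still rested on 1483 counts. With TMM, EPB41 (1.86 ± 0.17), DMTN (1.89 ± 0.42), TMOD1 (1.54 ± 0.26), ANK1 (1.06 ± 0.19) and EPB42 (0.89 ± 0.22) were higher on day 12, with edgeR adjusted p of 5.78e-07, 0.00162, 0.000207, 0.00025 and 0.00375. Thus 6 of 9 members were called, against 57.2% of all genes (23.8% higher and 33.4% lower). EPB41, DMTN and TMOD1 were also called higher with library totals, by 1.04, 1.07 and 0.73 (edgeR adjusted p of 0.000424, 0.0249 and 0.0229), but ANK1 and EPB42, at 0.24 and 0.07, were not. SPTB (-1.33, edgeR adjusted p = 0.0011) and ADD2 were called lower with library totals. With that scaling 60.2% of all genes were called in this comparison (11.8% higher and 48.4% lower). On TPM no member was called higher, and SPTB (-2.09), EPB42 (-0.55), TPM1 (-1.17) and ADD2 were called lower (limma on log2(TPM + 1), adjusted p of 6.56e-05, 0.0284, 0.00921 and 3.69e-07). Of all genes, 62% were called on TPM, 8.38% higher and 53.6% lower. ANK1 (-0.39) and SLC4A1 (-0.59) then also had estimates below 0, which the TMM-scaled counts put at 1.06 and 0.83.

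Each change was also set against the median of all genes under the same scaling. EPB41 stood 2.06, 2.06 and 1.08 above that median with TMM, library totals and TPM, and DMTN 2.1, 2.1 and 1.09 above it. TMOD1 stood 1.74, 1.76 and 0.78 above it, and ADD2 was 3.37, 3.4 and 3.98 below it. ANK1 (1.27, 1.27 and 0.29), SLC4A1 (1.03, 1.05 and 0.09) and EPB42 (1.09, 1.09 and 0.12) stood well above the median on counts and close to it on TPM. SPTB was 0.29, 0.31 and 1.42 below the median. TPM1 was 0.53 and 0.55 above it on counts and 0.49 below it on TPM, so its direction depended on the unit. In TPM, the libraries of day 12 lay above both libraries of day 8 for EPB41 and DMTN (11.8% of all genes did) and below them for SPTB, ANK1, SLC4A1, EPB42, ADD2 and TPM1 (68.1% of all genes did). TMOD1 overlapped.

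**Figure D3:**
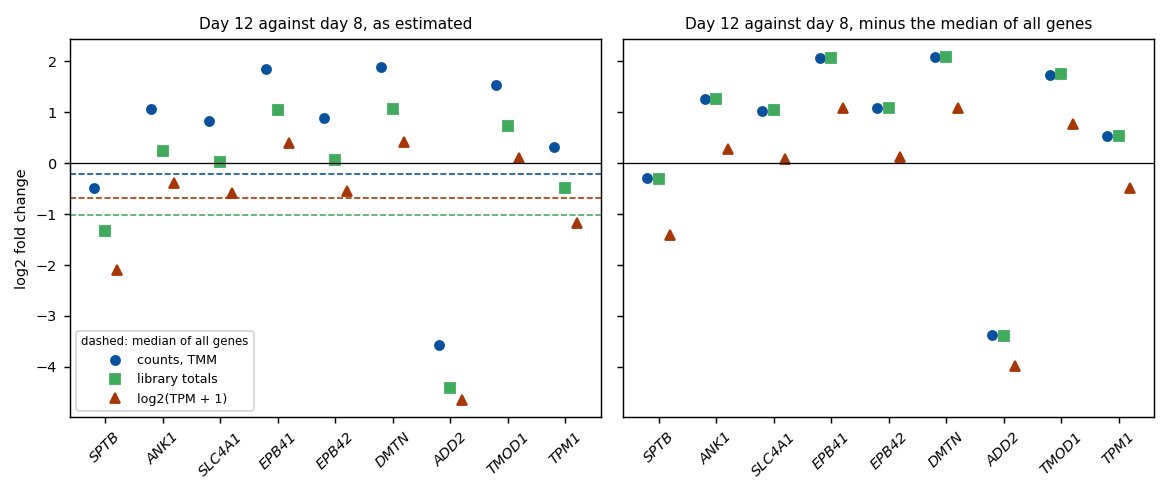
Log2 fold change from day 8 to day 12 (vertical axis) of the 9 genes under 3 scalings, as estimated on the left, where dashed lines mark the median of all genes, and minus that median on the right. ADD2 is the lowest gene under each scaling, while ANK1, SLC4A1, EPB42 and TPM1 lie above or below 0 depending on the scaling.

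Across the whole course, from day 0 to day 12, all 9 members were called with TMM, 8 higher and ADD2 lower (-2.84 ± 0.35, edgeR adjusted p = 6.73e-06), against 68.2% of all genes (29.7% higher and 38.5% lower). SLC4A1 (8.01 ± 0.52) and DMTN (5.01 ± 0.48) had the largest changes, and both were called higher under all 3 scalings, as were EPB41, EPB42 and TMOD1. With library totals 71.8% of all genes were called (14.5% higher), and on TPM 75.9% (10.1% higher and 65.7% lower). SPTB turned with the scaling: 0.71 ± 0.24 with TMM (edgeR adjusted p = 0.0166), -0.49 with library totals (edgeR adjusted p = 0.133) and -1.41 on TPM (limma adjusted p = 0.00117). With TMM its call was lost without the set B library of day 0 (0.50, edgeR adjusted p = 0.157) or of day 12 (0.62, edgeR adjusted p = 0.0912). Its TPM on day 12, at 68.7 and 113, was below the 279 and 199.7 of day 0.

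The transcripts behind these sums changed their shares as well, and a share within a gene does not depend on the scaling of the library. How StringTie divided reads among transcripts that share exons is not given in the sources used here, so shares of overlapping transcripts are estimates. SPTB came mostly from NM_001355437, the shorter transcript of 6839 bases, which encodes 2137 codons in 32 exons. It held 85.3% and 89.4% of SPTB TPM on day 0 and 96% and 92.3% on day 8, in sets A and B, but 59.7% and 79.6% on day 12. The longer NM_001355436, of 10177 bases, 2328 codons and 36 exons, held 5.88% and 4.75%, 0.699% and 3.07%, and 27.2% and 16.8% on those days. The shorter protein is the form known from red cells, and the longer one, known from muscle and brain, carries a pleckstrin homology domain at its end. From day 8 to day 12 NM_001355437 fell by 1.39 ± 0.26 while NM_001355436 rose by 2.57 ± 0.67 (edgeR on transcript counts with TMM, adjusted p of 0.00312 and 0.0211).

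ANK1 was spread over 3 main transcripts that share both ends. NM_020477, the shortest at 7746 bases, held 27.2% and 29.6% of ANK1 TPM on day 0, 27.5% and 26.3% on day 8, and 5.62% and 8.56% on day 12. NM_020476, of 8232 bases, held 39.9% and 44.2% on day 0 and 55.3% and 48% on day 12, and NM_020475, of 8157 bases, went from 21.3% and 18.5% to 27.6% and 31.4%. From day 8 to day 12 NM_020477 fell by 1.15 ± 0.29 (edgeR adjusted p = 0.0171), whereas NM_020476 rose by 0.94 ± 0.11 and NM_020475 by 1.34 ± 0.35 with TMM (edgeR adjusted p of 0.000118 and 0.0224). On TPM the libraries overlapped for both, with NM_020476 at 217 and 209 TPM on day 8 and 163 and 221 TPM on day 12, so these rises depend on the scaling as that of ANK1 does.

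The leading EPB41 transcripts have the same ends and differ in 3 coding exons. NM_001166007 (5763 bases, 18 exons) held 87.5% and 95.4% of EPB41 TPM on day 0, 69.6% and 51.8% on day 8 and 70.2% and 65.8% on day 12. NM_001376022 (5925 bases, 21 exons) held 3.48% and 0% on day 0, 13.4% and 28.6% on day 8 and 10.7% and 16.7% on day 12. Both later days were above both libraries of day 0, but the counts of NM_001376022 varied widely between libraries. Its change from day 0 to day 8, 4.37 ± 3.09, did not pass (edgeR adjusted p = 0.549), nor did that of NM_001166007, 0.25 ± 0.19 (edgeR adjusted p = 0.582). Other EPB41 transcripts held 35.9% in the set B library of day 6, against 9.90% in that of set A. Exon structures were taken from GENCODE transcripts with the same ends and length, except that the model of NM_001166007 is 9 bases longer. The exons that NM_001376022 holds and NM_001166007 lacks are shown because they are what sets the forms apart. They are exons 13, 14 and 15 of 21, all coding, on the plus strand of hg38 chromosome 1 and 19, 14 and 21 codons long.
EPB41 chr1:29058589-29058645: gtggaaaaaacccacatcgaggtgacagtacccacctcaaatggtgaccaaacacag
EPB41 chr1:29058811-29058852: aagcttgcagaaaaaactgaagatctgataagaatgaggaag
EPB41 chr1:29060422-29060484: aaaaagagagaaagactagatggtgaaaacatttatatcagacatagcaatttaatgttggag
As background, the last of these exons is known to encode part of the domain that binds spectrin and actin, and its inclusion is known to increase as erythroid precursors mature.

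EPB42 was made up of NM_001114134, at 56.1% and 70.8% of its TPM on day 0 and 57.6% and 66.8% on day 8, and of NM_000119, at 24.9% and 7.62% and at 29.8% and 13.6%. NM_001114134 rose by 1.83 ± 0.29 from day 0 to day 8 (edgeR adjusted p = 0.00629), and for NM_000119 the estimate was 2.14 ± 0.61 (edgeR adjusted p = 0.113). These forms differ by a coding stretch of 90 bases at the end of the first exon, on the minus strand of chromosome 15, which adds 30 codons to NM_000119 and is shown for that reason.
EPB42 chr15:43220726-43220815: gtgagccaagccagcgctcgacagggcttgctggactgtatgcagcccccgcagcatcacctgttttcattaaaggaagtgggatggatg
Of the other members, SLC4A1 came almost wholly from NM_000342, at 94.5% to 99% of its TPM in every library, while NM_001330344 held 72.3% to 93.8% of TPM1, and NM_003275 held 66.2% to 92.7% of TMOD1. A predicted TMOD1 transcript, XM_024447660, held 22.2% and 21.2% on day 8 and 11.6% and 28.2% on day 12. XM_011532502, a predicted transcript, held 71.1% to 86.2% of ADD2 and fell by 3.97 ± 0.39 from day 8 to day 12 (edgeR adjusted p = 2.3e-05). DMTN was split over 58 annotated transcripts, of which 9 rose by day 8 and none fell. In all, 150 of 206 member transcripts could be tested, and 18 rose from day 0 to day 8 (2.04% of all 75285 transcripts were called, 0.914% higher and 1.13% lower). From day 8 to day 12, 13 rose and 7 fell, against 14.2% of all transcripts (2.85% higher and 11.4% lower). These counts moved with the libraries: without either library of day 0 the first was 6, without the set B library of day 8 it was 8, and the second was 8 without the set A library of day 8 and 13 without that of day 12.

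Because most members rose together up to day 8, the RefSeq promoter windows (GRCh38.p14, the 250 bases before a start) were read for GATAA, the core of the site bound by GATA factors, and CACCC, the core of the site bound by KLF factors, on both strands. A window at the start of the leading transcript was at hand for 5 members, EPB41, TMOD1, SPTB, EPB42 and TPM1. Of these, SPTB and EPB42 held both motifs, TMOD1 held CACCC alone, and EPB41 and TPM1 held neither. Over all 35116 windows of this length, 20.4% held GATAA, 54.7% held CACCC and 8.75% held both. The windows with both motifs are shown on the strand of the gene, minus in both cases, with each match in capitals, where TTATC stands for the first motif on the other strand and GGGTG for the second. In SPTB GATAA begins 41 bases before the start and GGGTG 165 bases before it. In EPB42 GATAA begins 207 and 60 bases before the start and CACCC 116 bases before it.
SPTB chr14:64879908-64880157: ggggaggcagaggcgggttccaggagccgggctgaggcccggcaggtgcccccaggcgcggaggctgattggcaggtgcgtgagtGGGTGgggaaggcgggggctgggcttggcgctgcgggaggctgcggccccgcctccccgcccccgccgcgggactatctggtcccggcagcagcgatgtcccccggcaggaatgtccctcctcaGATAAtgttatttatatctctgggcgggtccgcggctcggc
EPB42 chr15:43221019-43221268: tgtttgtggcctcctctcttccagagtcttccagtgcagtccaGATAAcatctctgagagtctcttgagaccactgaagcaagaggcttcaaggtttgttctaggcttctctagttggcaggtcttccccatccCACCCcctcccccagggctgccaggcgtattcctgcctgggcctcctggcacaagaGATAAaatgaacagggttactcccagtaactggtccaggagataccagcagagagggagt
A match is a run of letters, and binding was not measured.

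Several members have relatives that other tissues use in their place, and 20 such genes were read beside them. Of these, 10 never passed 2 TPM in any library (ANK2, ANK3, EPB41L1, EPB41L2, EPB41L5, SVIL, ABLIM1, VIL1, TMOD2 and TPM2). Of the 17 that passed the filter on low counts, 4 rose and 6 fell from day 0 to day 8, with a median of -2.28 against 0 for all genes, and 2 rose and 8 fell with library totals. Of all 16784 genes, 17.7% were called higher and 19.4% lower with TMM, and 1538 were called higher and 4684 lower with library totals. The list and its families were chosen with earlier results known. Changes of the 17 ran from -8.83 to 7.87 with TMM. Some of the 17 never passed 2 TPM, so the median includes genes of low level. The relatives named below as called between days 0 and 8 all fell, and the 4 that rose are not singled out. TGM2, the relative of EPB42, was at 80.7 and 50.4 TPM on day 0 and at 96.3 and 89 TPM on day 8. In the anion exchanger family, SLC4A2 was at 63.2 and 79.9 TPM on day 0, above SLC4A1, and at 36.9 and 38 TPM on day 8. Its change was -0.33 ± 0.24 with TMM (edgeR adjusted p = 0.301) and -0.91 on TPM (limma adjusted p = 0.0027), while SLC4A7, a sodium bicarbonate transporter, fell by 3.36 ± 0.32 (edgeR adjusted p = 8.36e-06). SLC4A1 thereby went from 24.9% and 15.8% of the summed TPM of the 3 genes on day 0 to 97.9% and 98.3% on day 8 and 99.9% in both libraries on day 12.

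Among the tropomyosins, TPM4 fell by 3.57 ± 0.46 to day 8 (edgeR adjusted p = 8.33e-05), from 142 and 169.8 TPM to 7.39 and 11 TPM. TPM1 rose, and its share of the 4 tropomyosins went from 13% and 16.2% on day 0 to 51.8% and 57.1% on day 8. By day 12 TPM4 was back at 33.3 and 32 TPM, a rise of 3.35 ± 0.46 with TMM and 1.75 on TPM (edgeR adjusted p = 2.99e-05, limma adjusted p = 0.000582). TMOD3, the widespread tropomodulin, was at 30.3 and 26.1 TPM at the start, at 35.2 and 28 TPM by day 8 and at 2.81 and 5.98 TPM at the end. It fell by 1.45 ± 0.18 from day 8 to day 12 (edgeR adjusted p = 1.18e-05), which left TMOD1 with 96.8% and 95.6% of tropomodulin TPM.

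The adducins parted on day 12. ADD1, the alpha chain that pairs with ADD2, went from 121 and 83.6 TPM on day 8 to 39.2 and 47.7 TPM, with an estimate of 0.22 ± 0.15 with TMM and -1.20 on TPM (edgeR adjusted p = 0.218, limma adjusted p = 0.000167). ADD2 held 57.2% and 48.2% of adducin TPM on day 8 and 7.56% and 10.5% on day 12, and a share within a family does not depend on the scaling of the library. Nonerythroid spectrin was low throughout. SPTAN1 was at 6.03 and 1.96 TPM on day 0 and fell by 4.91 ± 0.64 by day 8 (edgeR adjusted p = 8.11e-05), and SPTBN1 fell by 4.75 ± 1.23 (edgeR adjusted p = 0.00978), so that SPTB held 95.2% and 97% of the beta spectrin TPM on day 0 and 99.8% and 99.9% on day 8.

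**Figure D4:**
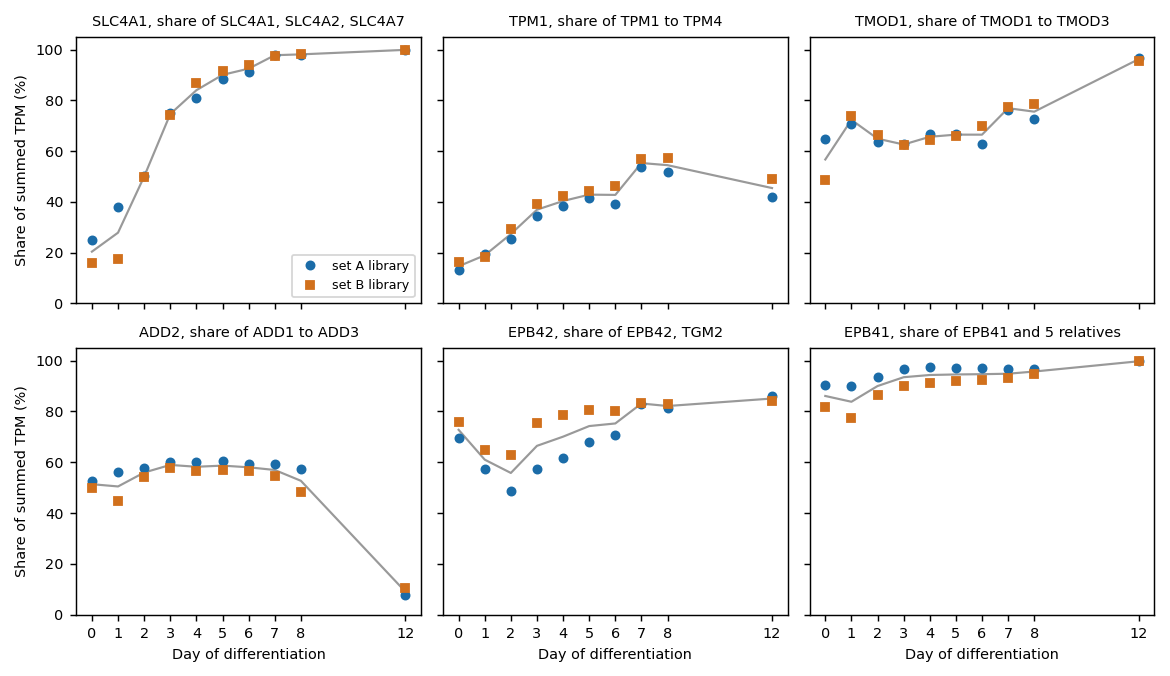
Share of a family's summed TPM (vertical axes, percent) held by the red cell member, by day, with circles for set A, squares for set B and a line through the mean. SLC4A1 goes from 24.9% and 15.8% to 99.9%, and ADD2 drops to 7.56% and 10.5% on day 12.

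Of 11 other genes of the skeleton and of the membrane complexes it holds, 8 rose and 1 fell from day 0 to day 8, with a median of 1.56. Of all genes, 17.7% were called higher and 19.4% lower. SLC2A1, the glucose transporter to which dematin and adducin bind, rose most, by 3.59 ± 0.31 (edgeR adjusted p = 3.95e-06), from 58.5 and 50.3 TPM to 329 and 512 TPM. GYPC, the glycophorin that anchors the product of EPB41, rose by 2.19 ± 0.29 (edgeR adjusted p = 9.79e-05). RHAG (1.84 ± 0.25) and STOM (1.56 ± 0.26) rose as well. ACTB, the actin of the junctions, fell by 0.83 ± 0.18 (edgeR adjusted p = 0.00311), from 3828 and 3926 TPM to 1716 and 1194 TPM, and ADD1 and TPM3 did not pass. With library totals 7 rose and 2 fell, while 1538 of all 16784 genes were called higher and 4684 lower. From day 8 to day 12, 5 of the 11 rose and none fell with TMM, but 2 rose and 4 fell with library totals (medians of 0.32 and -0.53). Of all genes, 23.8% were called higher and 33.4% lower with TMM, and 11.8% and 48.4% with library totals. STOM and SLC2A1 were higher under all 3 scalings, by 1.99 and 2.41 with TMM and by 0.56 and 1.03 on TPM.

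Across the 20 libraries, the log2 levels of the members other than ADD2 ran in parallel to differing degrees, with Pearson's r between 0.49 and 0.96 over their 28 pairs, EPB42 and DMTN being the closest and SPTB and EPB41 the farthest apart. For ADD2, r with the 8 others ran from -0.69 (EPB41) to 0.25 (SPTB). These points share the days and the day 12 scaling, so the values only describe the shapes. The genes with the pattern most like a member's were LOC102723750 and SLC6A9 for SLC4A1 (r = 0.99 for both), SLC25A37 for EPB42 (0.99), GYPC for DMTN (1.00), ATP2B4 for ADD2 (0.99), WNK1 for EPB41 (1.00), DDI2 for ANK1 (0.99), TNXB for SPTB (0.97), KDM4C for TPM1 (0.97) and MARCHF3 for TMOD1 (0.99).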

How the data were processed

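RNA from 20 libraries, 2 on each of 10 days, was sequenced from a stranded mRNA library kit. Per the submitters' processing notes, the authors used Trimmomatic 0.38 for trimming, HISAT2 2.1.0 for alignment (build hg38) and StringTie 2.1.3b for transcripts. The deposited tables hold, for 170322 transcripts, read counts that the authors left unnormalized. The deposited tables also hold TPM, in which the authors accounted for the length of a transcript and the size of its library. A further 23 columns of values (FPKM and an additional set for day 0) were not used. Every transcript carried a gene symbol, and counts and TPM were summed over the transcripts of a symbol, 46425 in all.

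Counts of 16784 genes that passed the edgeR filter on low counts were scaled by TMM and tested with the edgeR 4.0.16 quasi-likelihood test in R 4.3.3, with 1 coefficient per day over all 20 libraries and Benjamini-Hochberg adjustment over all genes at 0.05. Transcripts were tested in the same way. DESeq2 1.42.0 and limma 3.58.1 on log2(TPM + 1) served as alternatives. Scaling to library totals and leaving out the libraries of days 7 and 8 richest in ribosomal RNA were chosen after seeing the data, and the latter left the counts of members called on days 3, 6, 8 and 12 as reported. Groups are the labelled days. The columns name the day but no replicate number. The members, the gene lists and the comparisons were chosen with earlier results of these data known. Named genes are the members, genes of the lists, the genes whose level correlates most with a member over the 20 libraries, and transcripts holding at least 20% of a member's TPM on any day. Beta spectrins, tropomyosins and the other families were put together from the lists after values were known. On simulated data for day 8 against day 0, with 200 of 16784 genes changed, the edgeR test found 99% of genes changed 4-fold and 35% of those changed 2-fold, and 2.90% of its calls were false. The simulation gave every gene the same relative spread between libraries and changed genes on day 8 alone. Far fewer genes changed in it than were called in the real data, so these rates need not hold for them. Results for 1 of the 11 other skeleton and membrane genes are not reported here, although it is counted with that list.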

Additional observations from a re-analysis of the deposited data

How the results depend on the processing

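No paired analysis was possible because the deposited columns carry no replicate numbers. With the set of tables as a block instead, 9 members were called on day 6 against day 0 (5 without it), 16 of the comparisons with the day before (7 without it) 29 transcripts on day 8 (18 without it) and all 9 members on day 8 (8 without it). Of 855 alternative values for single members, 776 kept their direction and side of the threshold, 41 lost the call, 26 gained it and 12 turned. For day 3 against day 0, library totals and a fit of those days alone each gave 1 member in place of 2, and leaving out 1 library gave 1 to 2. For day 6, the edgeR exact test and DESeq2 each gave 8, a fit of those days alone 2, and leaving out 1 library 1 to 4. For day 8, limma on log2(TPM + 1) and on log2(TPM + 0.1) gave 5 in place of 8, and leaving out 1 library gave 8 each time. Against the day before, DESeq2 gave 11, and leaving out 1 library 6 to 9. Of transcripts on day 8, DESeq2 called 51, a minimum of 10 counts in every library 35 and a fit of those days alone 0 (45 of its 108 had an unadjusted p under 0.05), and leaving out 1 library gave 6 to 13. Of transcripts on day 12 against day 8, 20 in the reported fit, DESeq2 called 46, a fit of those days alone 0 (37 of its 138 had an unadjusted p under 0.05), and leaving out 1 library gave 8 to 18. On TPM with either pseudocount the change from day 8 to day 12 turned for ANK1 (-0.39), SLC4A1 (-0.59), EPB42 (-0.55 and -0.56) and TPM1 (-1.17 and -1.18, and -0.48 with library totals), and from day 0 to day 12 for SPTB (-1.41 and -1.42, and -0.49 with library totals). The cause was not tested. A fit of only the days compared has fewer libraries to estimate the spread from.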
